A study of Mus musculus with 6 samples.

Results

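The SIX-family homeodomain proteins, their EYA coactivators and the paired-box proteins PAX1 and PAX9 pattern the developing head skeleton, and 9 of their genes, Six2, Six4, Six5, Eya1, Eya2, Eya3, Eya4, Pax1 and Pax9, are described here in embryonic nasal cartilage. They were taken by name from a list drawn up with earlier results of these data known, no measured value enters the rule, and all 9 were found among the 38924 genes of the count tables. Transcripts were counted by RNA-seq in cartilage of the anterior nasal septum, cut by laser from frozen head sections of C57BL/6 mouse embryos at embryonic day 14.5. One group was wild type (WT, n = 3 mice). The other carried the genotype Fgfr2+/S252W; EIIA-Cre (called Apert here, n = 3 mice), a heterozygous receptor mutation that models Apert syndrome, a human condition with early fusion of skull sutures. EIIA-Cre recombines widely in the early embryo, so the mutation is not limited to cartilage, and the labels give no Cre allele for the WT mice. Library totals ran from 6760510 to 10834744 counts, with a lowest total of 8631181 in WT and a highest of 10527915 in Apert.

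SIX-family proteins bind DNA through a SIX-type domain and a homeodomain. Many of them lack a strong activation domain of their own and recruit EYA proteins, which activate transcription and carry a phosphatase domain. DACH proteins act in the same network, often as corepressors. Six2 marks cranial mesenchyme and the progenitors of the kidney and takes part in growth of the skull base. Six4 acts in muscle, and Six5 lies next to the myotonic dystrophy kinase gene Dmpk. PAX1 and PAX9 are close paralogues that drive the sclerotome, the source of vertebral cartilage, and PAX9 is also needed for palate and teeth.

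In the count files (mm10) Six2 and Six5 are compact. Six2 (ENSMUSG00000024134) spans 85684268 to 85688274 on the minus strand of chromosome 17 in 2 exon blocks. Six5 (ENSMUSG00000040841) spans 19094594 to 19098549 on the plus strand of chromosome 7, 772 bases from Dmpk. Six4 (ENSMUSG00000034460) spans 73099609 to 73114037 on the minus strand of chromosome 12. The EYA genes are far longer in the genome, from 85779 bases for Eya3 to 245728 bases for Eya4, each in 18 to 20 exon blocks. None of Six2, Six4, Six5 and the 4 Eya genes shared an exon base with another gene, so their counts are not split by overlap. Pax9 (ENSMUSG00000001497; chromosome 12, 56691767 to 56712822, plus strand) shared 189 exon bases with Slc25a21, and Pax1 (ENSMUSG00000037034; chromosome 2, 147361925 to 147393295, plus strand) shared 59 with AI646519.

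Sequence near the start of Six2 and Six5 is printed because their longest transcripts had the highest GC content of the members. A stretch of Six4 is printed because it held a match to an element that SIX-family proteins bind. GC content of the longest transcript moved with the genotype difference across all genes, as given further on. The Six2 and Six5 stretches lie outside the deposited gene models, and their own base content was not compared with the genotype difference. The sequences come from RefSeq promoter windows (GRCm38.p6). CG dinucleotides are in capitals for Six2 (chr17:85688275-85688504, minus strand) and Six5 (chr7:19094294-19094543, plus strand), whose stretches stop before the deposited gene model begins. For Six4 (chr12:73113326-73113354, minus strand, inside the deposited gene span) the capitals mark a match to the element that SIX-family proteins bind.
Six2: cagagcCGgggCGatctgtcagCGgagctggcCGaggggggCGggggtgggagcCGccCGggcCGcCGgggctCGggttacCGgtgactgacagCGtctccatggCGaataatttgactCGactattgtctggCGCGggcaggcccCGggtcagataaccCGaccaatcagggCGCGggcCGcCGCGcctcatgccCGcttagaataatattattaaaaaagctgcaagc
Six5: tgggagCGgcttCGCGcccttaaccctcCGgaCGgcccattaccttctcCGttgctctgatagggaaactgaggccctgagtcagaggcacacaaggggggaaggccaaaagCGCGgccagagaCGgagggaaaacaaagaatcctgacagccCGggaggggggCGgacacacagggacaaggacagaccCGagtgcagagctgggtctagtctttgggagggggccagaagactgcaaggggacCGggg
Six4: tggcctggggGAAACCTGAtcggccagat

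The Six2 stretch of 230 bases held 24 CG dinucleotides and the Six5 stretch of 250 bases held 13. Windows of 300 bases were matched for 7 of the 9 genes, all but Eya1 and Eya2. The windows of these genes held from 11 (Pax9) to 37 (Six2) CG dinucleotides, beside a median of 7 over all windows. The Six5 window held 17, and those of Eya4, whose longest transcript has 41.3% GC, held 36 and 28. Both strands of all windows were searched for the core TCAGGTT and for TCAGGTTTC, the longer MEF3 element that contains it. Of the 7 genes only Six4 had a match, on the opposite strand, to both. Among all 32851 windows, 4.07% held the core and 0.429% the longer element. The match is in letters alone and shows no binding, and with 2 annotated starts for Six4 it lies before one of them and after the other.

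Six2 was the dominant member in WT cartilage. Per kilobase of exon, its level was 121 ± 16.7 CPM per kb (counts scaled to a common library total; SD, n = 3). Its mean over all 6 libraries, WT and Apert together, was 104 CPM per kb. That was higher than the mean of 98.9% of the 13333 genes that passed the expression filter. In WT, Eya1 followed at 38.8 ± 1.88 CPM per kb, 3.11 times lower than Six2 and with no overlap of the WT libraries. Six5 (26.7 ± 2.81) and Eya4 (26.0 ± 3.29) came next, and their WT libraries overlapped, so their order is not set. Eya3 (7.35 ± 0.746) and Six4 (7.03 ± 0.911) overlapped likewise, as did Eya2 (1.89 ± 0.982) and Pax9 (1.83 ± 0.233 CPM per kb; SD, n = 3 each).

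In Apert cartilage Six2 again led at 87.3 ± 36.3 CPM per kb and Eya1 followed at 48.2 ± 4.33. Eya4, at 29.7 ± 3.71, stood above Six5, at 17.9 ± 5.07, and there the libraries of these 2 genes did not overlap (SD, n = 3 each). Among Six2, Six4 and Six5, the Six2 share of the summed level per kilobase ran from 70.9% to 85.7% over the 6 libraries. Among the 4 EYA genes, Eya1 took 48.8% to 57.6% and Eya4 32.0% to 38.7%, and in every library Eya1 was the larger of these 2. Eya2 took at most 4.22%.

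**Figure D1:**
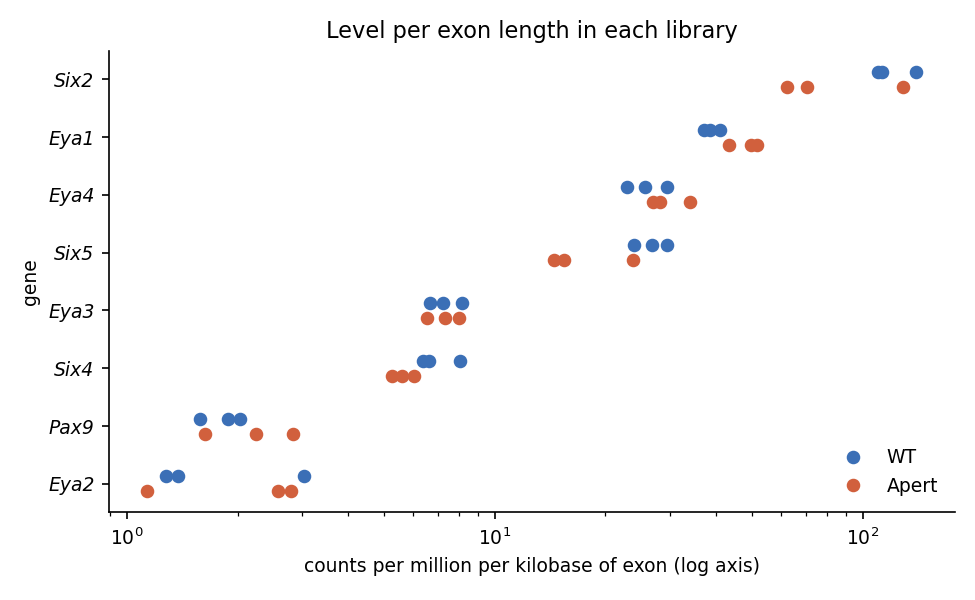
Level of each member in CPM per kilobase of exon (log axis), 1 point per library, WT in blue and Apert in orange; Pax1, at 0 in 5 libraries, is left out. Six2 stands highest, Eya1 next, and Pax9 and Eya2 lie at the bottom near 2.

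Pax1 was at the limit of detection: its only counts were 3, in Apert replicate 3, and the other 5 libraries had none. In those 5 libraries a count of 0 allows up to 3 counts, or 0.26 to 0.408 CPM depending on the library, and these limits cover counting error only. Pax1 did not pass the expression filter, and with counts in 1 library an exact permutation test gives p = 1 whichever library that is, so its groups were not compared. Its paralogue Pax9 was detected in every library with 70 to 105 counts.

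Genotype differences were tested across all 13333 filtered genes with edgeR's quasi-likelihood test and Benjamini-Hochberg adjustment. Of the 8 members tested none was called at an adjusted p of 0.05, where 0.45% of all tested genes were (0.398% higher and 0.0525% lower in Apert). DESeq2 and limma-voom also called none. At an unadjusted p under 0.05 there were 3 members, Six5 and Six2 lower and Eya1 higher, against 11.4% of all genes (5.01% lower and 6.35% higher). The groups did not overlap for 3 members, Six4 and Six5 lower and Eya1 higher, against 16.6% of all genes (7.7% lower and 8.92% higher). The median log2 fold change of the 8 members was 0.08, beside 0.01 for all genes, with 4 positive and 4 negative values. In bulk tissue, fewer cells of a type and less RNA per cell cannot be told apart.

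Six5 had the smallest p of the list. Its level was 88.7, 80.5 and 71.8 CPM in WT replicates 1 to 3 and 46.5, 71.3 and 43.6 CPM in Apert replicates 1 to 3. All 3 Apert libraries lay below all WT libraries, but Apert replicate 2 did so only just. The group means were 80.3 ± 8.45 and 53.8 ± 15.2 CPM (SD, n = 3 each). Its log2 fold change was -0.58 (standard error 0.19, 95% interval -0.98 to -0.18; edgeR adjusted p = 0.232), and the difference did not pass the test.

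Six2, the skull-base growth gene, varied widely within the mutant group. WT replicates 1 to 3 had 298, 239.6 and 234 CPM, and Apert replicates 1 to 3 had 274, 150.25 and 133 CPM. Apert replicate 1 thus sat among the WT libraries, while the other 2 mutant libraries lay below all of them. Mean levels were 257 ± 35.5 CPM for WT and 186 ± 77.2 CPM for Apert (SD, n = 3 each), a log2 difference of -0.47 with a standard error of 0.21 (95% interval -0.91 to -0.03; edgeR adjusted p = 0.413). Without Apert replicate 3 it was -0.28. Without Apert replicate 1 it was -0.89 and passed (standard error 0.16, adjusted p = 0.00846), and over the 17 alternatives tried the adjusted p ran from 0.00846 to 0.938. With both that library left out and an offset for GC content, it was -0.51 and did not pass (edgeR adjusted p = 0.161). This alternative was chosen after the values were seen. Over all tested genes, log2 CPM of Apert replicate 1 correlated at 0.9515 to 0.9615 with WT libraries and at 0.9452 and 0.9474 with Apert ones. Apert replicates 2 and 3 correlated at 0.9498 with each other and at 0.94 to 0.9564 with WT. The part of such library-wide likeness in the Six2 values was not tested.

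Six4 differed less but without overlap. It was measured at 44.9, 56.8 and 46.6 CPM in WT and at 42.4, 37.0 and 39.4 CPM in Apert replicates 1 to 3. Every mutant library was below every WT library, and the mutant libraries were close together. The means were 49.4 ± 6.41 and 39.6 ± 2.72 CPM (SD, n = 3 each), with a log2 fold change of -0.32 (standard error 0.18, 95% interval -0.69 to 0.05; edgeR adjusted p = 0.518).

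**Figure D2:**
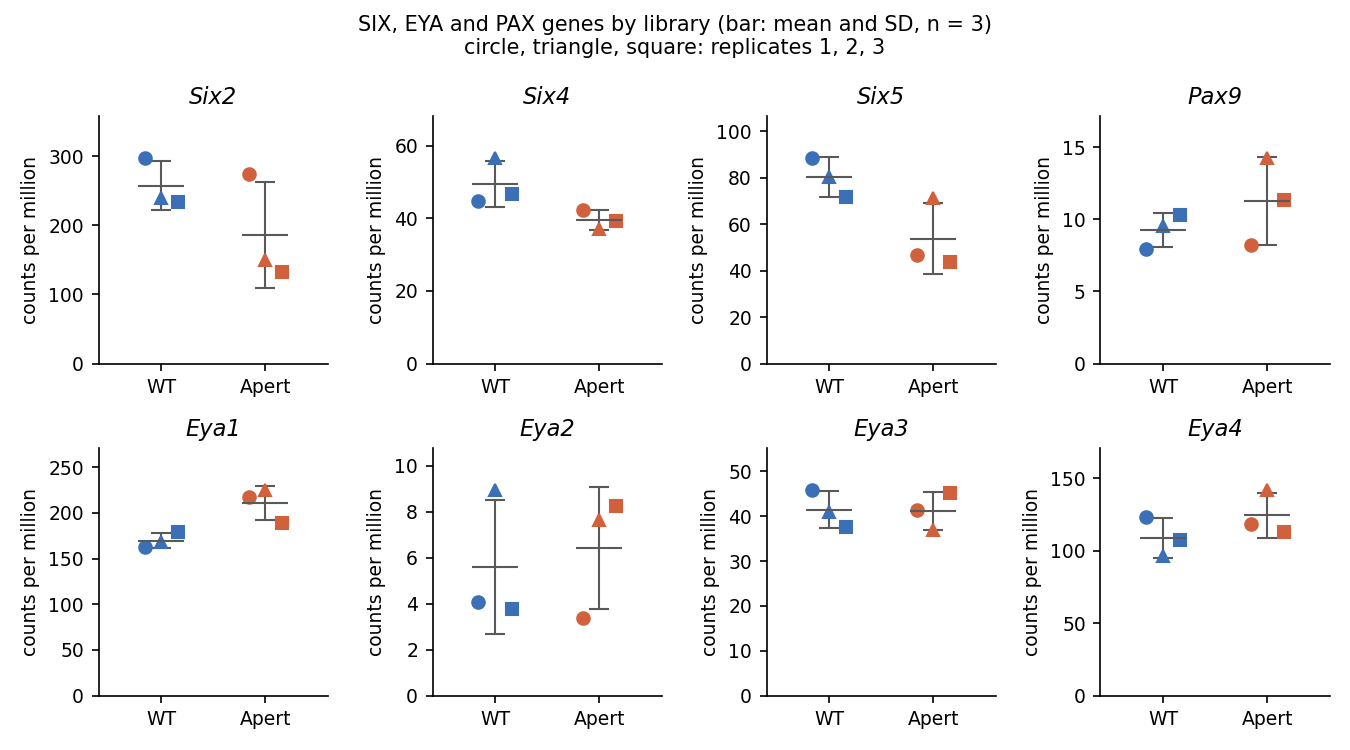
CPM (linear axis from 0) of the 8 tested members in each library, with replicates 1, 2 and 3 as circle, triangle and square, and the mean and SD of each genotype (n = 3). Six4 and Six5 are lower and Eya1 higher in every Apert library, and Six2 of Apert replicate 1, at 274, lies among the WT values.

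The EYA genes had estimates near or above 0. Eya1, the most abundant coactivator, was at 162, 168 and 179 CPM in WT and at 217, 226 and 189 CPM in Apert replicates 1 to 3. All mutant libraries lay above all WT libraries, and the WT libraries were tightly grouped. The means were 169.7 ± 8.21 and 211 ± 18.9 CPM (SD, n = 3 each), with a log2 fold change of 0.31 (standard error 0.13, 95% interval 0.03 to 0.60; edgeR adjusted p = 0.393).

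Eya4, known for its part in hearing, had 109 ± 13.8 CPM in the WT libraries and 124.5 ± 15.6 CPM in the mutant ones, with overlapping libraries (log2 fold change 0.19, edgeR adjusted p = 0.687). Eya3, the broadly expressed member, was at 41.5 ± 4.21 and 41.2 ± 4.17 CPM (SD, n = 3 each). Its log2 fold change was -0.01, and the 95% interval bounds the fold between 0.765 and 1.29. Eya2, with only 34 to 93 counts per library, ranged from 3.79 to 8.96 CPM in WT and from 3.37 to 8.26 CPM in Apert. Its interval for the fold, 0.604 to 2.12, spans differences of either sign, and its libraries varied widely within both groups.

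Pax9 was at 7.97, 9.54 and 10.3 CPM in WT and at 8.23, 14.3 and 11.3 CPM in Apert replicates 1 to 3. The groups overlapped, since Apert replicate 1 lay near the lowest WT library. The means were 9.27 ± 1.18 and 11.3 ± 3.03 CPM (SD, n = 3 each), with a log2 fold change of 0.28 (95% interval for the fold 0.795 to 1.86; edgeR adjusted p = 0.765).

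**Figure D3:**
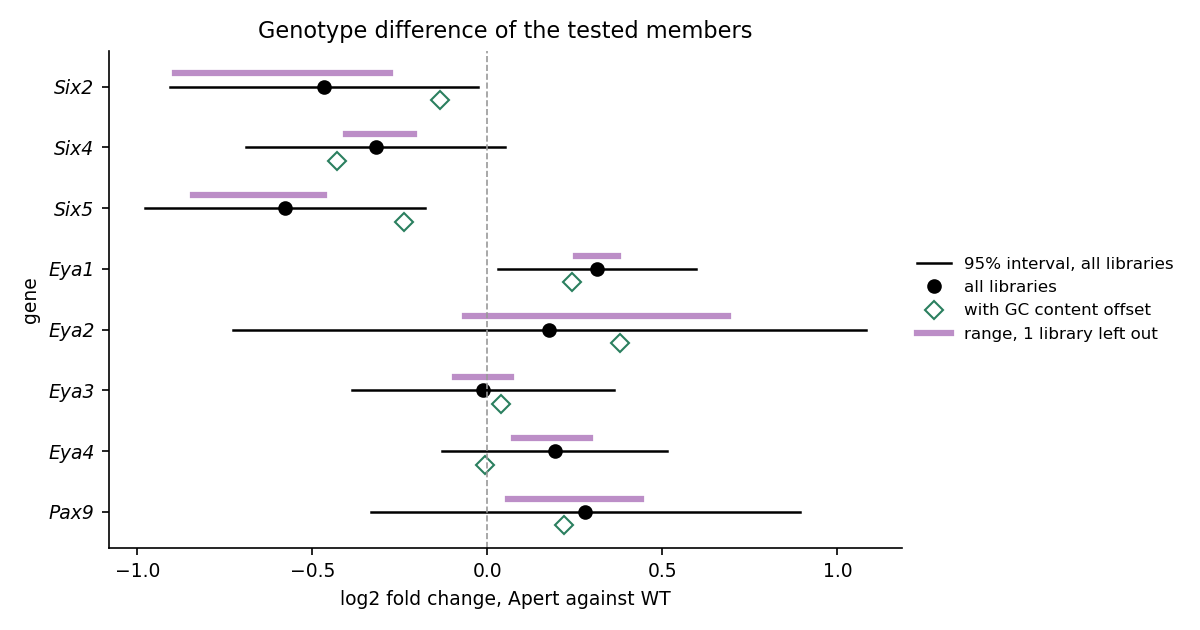
Log2 fold change (Apert against WT) of the 8 tested members: black points with 95% intervals for all 6 libraries, open diamonds with an offset for GC content, purple bars for the range when 1 library is left out. Estimates of Six2, Six4 and Six5 lie below 0 in each setting drawn, though the 95% interval of Six4 crosses 0. Those of Eya1 lie above 0, and the diamonds of Six2 and Six5 move toward 0.

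GC content moved with the genotype difference over all tested genes, and the members differ in it. The longest transcripts of Six2 and Six5 have 61.2% and 61.1% GC, those of Six4, Eya1 and Pax9 have 44.8%, 46.2% and 46.7%, and that of Eya4 has 41.3%. The median log2 fold change was -0.32 for the 422 tested genes with at least 60% GC (quartiles -0.60 and -0.04), so Six2 and Six5 lay within the quartiles of their class. It was 0.15 for the 2850 genes with 40% to 45% GC (quartiles -0.02 and 0.35). Eya4 lay near that median, and Six4 lay below the lower quartile of the same class. Eya1 and Pax9 lay above the upper quartile, 0.26, of the 3648 genes with 45% to 50% GC.

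With GC content as an offset in the fit, the log2 fold change of Six2 was -0.14, that of Six5 -0.24, that of Eya1 0.24 and that of Eya4 -0.0064. That of Six4 was -0.43 (standard error 0.18, edgeR adjusted p = 0.572), larger than without the offset. None of the 8 members passed with it, and 1 had an unadjusted p under 0.05. The share of counts from the mitochondrial genome also differed between the groups, at 28.8% to 30.2% in WT and 34.3% to 40.4% in Apert libraries. Since the GC trend was measured between the genotypes, the offset may also take out genotype difference, and the 2 cannot be told apart. The part of RNA quality was not tested.

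**Figure D4:**
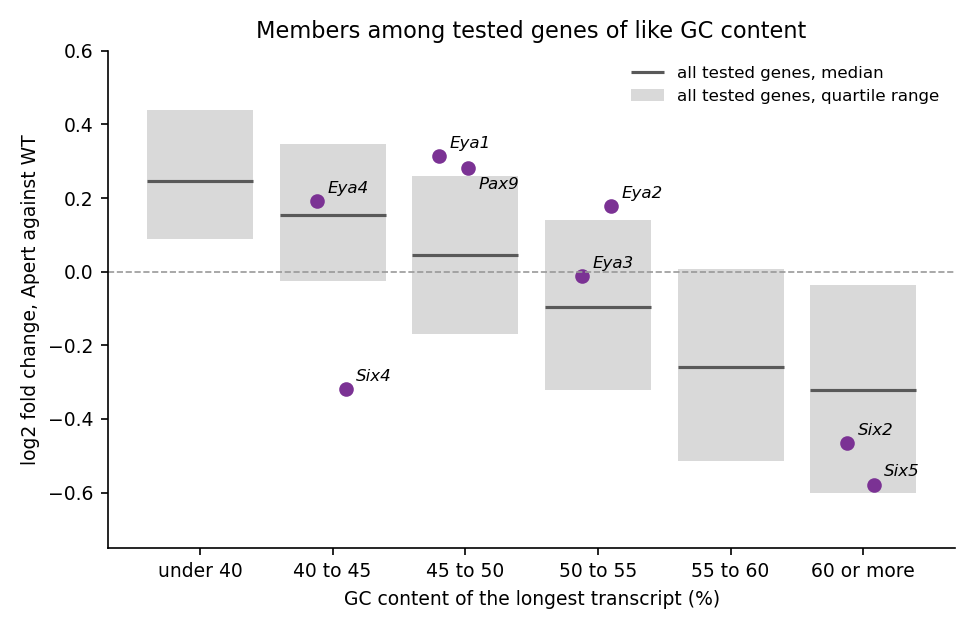
Log2 fold change (Apert against WT) by GC content class of the longest transcript, with the median and quartile range of all tested genes (grey) and the 8 tested members (purple, placed in their class). Medians fall from 0.25 under 40% GC to -0.32 at 60% or more, where Six2 and Six5 lie, while Six4 lies below its class.

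All 15 chondrocyte marker genes had counts in the captured tissue, with Col2a1, the main cartilage collagen gene, at 16336 to 24543 CPM. Snorc had none in Apert replicate 2 and did not pass the expression filter. Of the 14 tested, none was called, with 10 negative and 4 positive log2 fold changes and a median of -0.19. At an unadjusted edgeR p under 0.05 there were 4, against 11.4% of all genes. The chondrocyte sums overlapped between the groups. Six2, Eya1 and Eya4 are also used by muscle, nasal epithelium and fibrous mesenchyme, so marker genes of those tissues were read in the same libraries. Of 16 skeletal muscle genes, 6 had no count in any library, among them the myogenic regulators Myod1, Myog, Myf5 and Myf6, and the summed level was 22.2 to 35.1 CPM in WT and 34.8 to 40.3 CPM in Apert. Most of the muscle sum was Neb, a giant filament gene of muscle, at 16.9 to 22.8 CPM in WT and 26.6 to 31.6 CPM in Apert with no overlap (log2 fold change 0.51, edgeR adjusted p = 0.351). Ttn, the titin gene, followed at 5.03 to 10.4 CPM over the 6 libraries, and both are named after their values were seen. Of 15 epithelial genes, 5 had no count, including Cdh1, and the sum was 1.30 to 2.02 CPM in WT and 0.595 to 3.40 CPM in Apert. The summed levels of the muscle and epithelial lists were below those of Six2, Eya1 and Eya4 in every library. The fibrous mesenchyme sum, given in the next paragraph, was above the levels of these genes in every library. The muscle sum was above the levels of Eya2 and Pax9 in every library. In Apert replicate 2, at 40.3 CPM, it was also above Six4 (37.0 CPM) and Eya3 (36.9 CPM). These sums and levels are CPM not divided by exon length, and Neb and Ttn have 26369 and 116824 exon bases. Per kilobase of exon, Neb (1.197) and Ttn (0.0606 CPM per kb) were below Six4 (5.262) and Eya3 (6.531) in that library. The muscle sum was not computed per kilobase, so its order against the members does not compare transcript numbers.

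The 16 perichondrium and fibrous mesenchyme genes were all detected, and their sum did not overlap between the groups, at 3499 to 4081 CPM in WT and 4626 to 5311 CPM in Apert. Of the 14 that were tested, 2 rose and 12 did not pass, where 0.398% of all tested genes were called higher. The log2 fold change was positive for 11 and negative for 3. At an unadjusted edgeR p under 0.05 there were 8 of these genes, against 11.4% of all genes. The sums of 8 glial genes (365 to 434 CPM in WT, 276 to 328 in Apert) and of 10 neuron genes (194 to 235 CPM in WT, 236 to 269 in Apert) did not overlap either. Most of the neuron sum was Ncam1, a cell adhesion gene also expressed outside neurons, at 187 to 220.4 CPM in WT and 221 to 259.97 CPM in Apert (log2 fold change 0.24, edgeR adjusted p = 0.527). Gap43 (1.91 to 10.3 CPM over the 6 libraries), Gng8 (0.964 to 2.75 CPM), Elavl4 (0.867 to 2.16 CPM) and Dcx (0.0867 to 0.810 CPM) were also detected in every library, and the other 5 genes, Tubb3 among them, were at 0 in at least 4 libraries. Endothelial genes (8, summed 15.7 to 30.1 CPM over the 6 libraries), leukocyte genes (9, 4.46 to 14.7 CPM) and erythroid genes (10, 51.1 to 93.0 CPM) overlapped between the groups. The part of these cell types in the values of the 9 genes was not tested.

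No partner of the network was called either. Of 12 other Six, Pax and Dach genes, 5 were measured and none passed, with a median log2 fold change of 0.15 and 4 positive values. Dach2 was at -0.39 (adjusted p = 0.591), Pax6 at 0.96 with a mean of only 0.985 CPM in WT (adjusted p = 0.653), and Pax3, a neural crest factor, at 0.26 (adjusted p = 0.687). Six6, Pax4, Pax5, Pax7 and Pax8 had no count. All 14 cofactor and corepressor genes were measured, with 6 positive and 8 negative values and a median of -0.06. The corepressor gene Ncor1 was at 0.18.

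Of 14 genes tied to SIX-family factors in mesenchyme, 4 were measured and none passed (median -0.11). The forkhead genes Foxc1 and Foxc2 were at 0.27 and -0.31. Hoxa2, known to hold Six2 down in the second branchial arch, had no count in any library. Of 16 genes tied to PAX1 and PAX9, 10 were measured and none passed, with 5 values of each sign. Sox9, the chondrocyte regulator, was at -0.67 (adjusted p = 0.125), Fgf10 at 1.78 with a mean of 0.746 CPM in WT (adjusted p = 0.345), and Bmp4 at 0.50 (adjusted p = 0.417). Nkx3-2, a known target of PAX1 and PAX9 in sclerotome, is named after its values were seen. It was at 2.17, 2.70 and 2.92 CPM in WT and 1.88, 0.680 and 0.972 CPM in Apert replicates 1 to 3 (log2 fold change -1.09, adjusted p = 0.516).

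Genes most like the leading member of each family were found by the root mean square difference of log2 CPM over the 6 libraries, each gene centred on its own mean. For Six2 they were Mknk2 (0.0489), Drap1 (0.0768) and Clptm1l (0.0940). The median was 0.517 over tested genes, with predicted, unnamed and mitochondrial ones left out. Mknk2 and Drap1 have 60.3% and 60.6% GC, near that of Six2, and means of only 6.17 and 3.20 CPM. Clptm1l has 51.7% GC, further from that of Six2. For Eya1 they were Atp2c1 (0.0278), Snap23 (0.0496) and Fam98b (0.0550; median 0.352), at 41.2%, 40.3% and 40.8% GC. For Pax9 they were Gcat (0.0351), Alg6 (0.0451) and Map7d3 (0.0582; median 0.414), at 56.7%, 40.5% and 41.7% GC. Gcat had a mean of only 1.85 CPM. None of these 9 genes was called, and over 6 libraries such likeness is a description only.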

How the data were processed

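The authors deposited whole-number fragment counts per Ensembl gene, 1 file per library, made with featureCounts 1.4.4 over exons without regard to strand on Ensembl release 75 models of GRCm38, per the file headers. Cutadapt, STAR 2.5.2b and build mm10 are named in the submitters' processing notes. Per the labels' protocols, 15 ng of RNA was amplified with the NuGEN Ovation system and tagged with Nextera XT, then read in pairs of 100 bp. Amplification can distort transcripts by GC content, and without molecular identifiers the counts are not independent molecules. Exon lengths are those of the deposited files.

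Symbols were matched by identifier for 37607 of 38924 genes. The other genes held 0.168% to 0.205% of counts and stayed in the totals. Genotype was fitted with edgeR 4.0.16 in R 4.3.3 (filterByExpr, TMM scaling, glmQLFit and glmQLFTest, Benjamini-Hochberg adjustment over 13333 genes, threshold 0.05), with DESeq2 1.42.0 and limma 3.58.1 as alternatives. CPM uses TMM-scaled totals, and 95% intervals use the fit's standard error and degrees of freedom, so they include variation between libraries. The GC offset is a smooth term (mgcv 1.9.3) for how far log2 values of a library deviate at a given GC content, taken from the longest GENCODE M21 transcript, and 13192 tested genes had a value. The fit was tested on simulated counts.

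Named were the 9 members, up to 3 measured genes of each of 4 pathway lists by smallest p, and the 3 genes nearest the highest member of each family, passing over predicted genes. Some genes that this rule names are not reported here. Members and lists were chosen with earlier results of these data known. The design text describes 1 sample per mouse.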

Additional observations from a re-analysis of the deposited data

How the results depend on the processing

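The 8 tested members were refitted under 17 alternatives: 3 scalings, 2 filters, DESeq2, limma-voom, a replicate block, removal of mitochondrial and globin genes, thinned counts, the GC offset and each library left out. Of 136 values, 128 kept their direction and were not called, 1 passed (Six2 without Apert replicate 1, -0.89) and 7 changed sign, all of genes near 0. The 128 include Eya2 and Pax9 under DESeq2, which had no adjusted p there. With the GC offset Eya3 was at 0.040 and Eya4 at -0.0064. With 1 library left out Eya2 ran from -0.063 to 0.69 (-0.011 without WT replicate 1, -0.034 without WT replicate 3, -0.063 without Apert replicate 3) and Eya3 from -0.091 to 0.068 (0.068 without WT replicate 1, 0.051 without Apert replicate 2). The number of members called lower ran from 0 to 1 and that called higher was 0 in each of these fits.

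Over all genes, 53 were called higher and 7 lower. These counts were 17 and 24 with library totals alone, which shifted the median over tested genes from 0.01 to -0.145 (log2), 154 and 93 with no filter, 161 and 62 with DESeq2 and 4 and 1 with the GC offset. Without WT replicates 1, 2 and 3 in turn they were 13, 22 and 0 higher and 2, 1 and 0 lower, and without Apert replicates 1, 2 and 3 they were 119, 2 and 10 higher and 110, 0 and 1 lower. Without WT replicate 3, edgeR gave 733 higher and 643 lower at an unadjusted p under 0.05. On library totals alone the WT level of Eya1 was 41.0 CPM per kb in place of 38.8, and 17 other member levels moved by less than 1 SD.

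The replicate block gave 128 higher and 44 lower, with Six2 at -0.53 (edgeR adjusted p = 0.0813) and Six5 at -0.61 (0.0876), and ended or made no call among the members. Same-numbered libraries had deviations correlated at 0.194, 0.0196 and 0.0860, and unlike-numbered ones at -0.145 to 0.0699. The values of replicates 1 and 3 were thus above all unlike-numbered ones. WT replicate 2 correlated better with Apert replicate 3 (0.0418) than with Apert replicate 2. These values do not settle whether the numbers are pairs. The labels name no batch, and the main fit took no pairs. Eya2 and Pax9 got no adjusted p from DESeq2. Thinning to the shallowest total moved the standard error of Eya2 from 0.43 to 0.44 and that of Pax9 from 0.29 to 0.31, and Pax1, with 3 counts in all, could not be tested.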
